A study of Homo sapiens with 4 samples.

Results

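Zinc transporters, metallothioneins and the metal-sensing transcription factor MTF1 were followed in 4 poly(A) RNA sequencing libraries of a drug-resistant colorectal cancer cell line. Members were chosen by gene symbol: SLC30A or SLC39A with a number, MT1 to MT4 with at most 1 further letter, and MTF1, taking the row with the highest mean count where several rows carry a symbol. The rule found 36 genes among 20323 gene rows: 10 SLC30A genes, 14 SLC39A genes, 11 metallothioneins and MTF1. The mitochondrial genes whose symbols start with MT- are not among them.

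All 4 libraries come from HCT-8, an epithelial line from a human ileocecal carcinoma, here in a derivative resistant to 5-fluorouracil. Control libraries (replicates 1 and 2) come from cells given a negative control plasmid, and METTL14 overexpression libraries (replicates 1 and 2) from cells given a plasmid for METTL14, a subunit, together with METTL3, of the complex that puts N6-methyladenosine (m6A) on mRNA. Cells of both groups were also exposed to cycloheximide, which blocks translation elongation, at 100 ug/mL, so no library shows these genes without it. Which promoter drives METTL14, and how long cells were kept after transfection, the sources used here do not say. The series states that the work was done in independent repeats.

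Zinc enters the cytosol through the SLC39A (ZIP) proteins, either from outside the cell or out of organelles, and leaves it through the SLC30A (ZnT) proteins, either across the plasma membrane or into organelles. Metallothioneins are short, cysteine-rich proteins that hold zinc, copper and cadmium in the cytosol. MTF1 senses free zinc, binds metal response elements in DNA and switches on metallothionein genes and the exporter SLC30A1. In the gut, SLC39A4 takes up dietary zinc at the luminal face of the cell.

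Total counts lay between 19206661 and 20161082 per library, and 12700 genes passed a filter on low counts. METTL14 itself had 472 and 598 counts under the control plasmid, against 7593 and 8516 under its own (log2 fold change 3.88, SE 0.141, edgeR adjusted p = 7.33e-05), so the labels hold for the targeted gene. Differences are given as METTL14 overexpression over control, on the log2 scale, from edgeR's quasi-likelihood test with Benjamini-Hochberg adjustment over the 12700 genes. A gene is called, and said to have risen or fallen, at an adjusted p below 0.05. By that rule 55.1% of all tested genes were called, 27.0% as higher and 28.1% as lower, and the groups' libraries did not overlap for 79.8%. All 10 colorectal epithelium markers examined, EPCAM and CDH1 among them, had at least 1 CPM (counts scaled to library size) in both groups. Of these 10, 4 rose, led by CDH17 (1.87), and 3 fell, the keratins KRT8 (-0.90), KRT18 (-0.92) and KRT19 (-0.39), and their sum was 18270 and 11950 CPM in the controls against 9399 and 9177. Of 6 leukocyte markers 1 reached that level in the controls and 2 with METTL14, with CD3E at 0 in each library and PTPRC at 0 or 1 count. Their sum was 1.77 and 2.26 CPM in the controls against 2.98 and 3.80, with CD14 higher. Of 6 endothelial markers none and 1 did so (sums of 1.09 and 0.513 against 1.90 and 1.63 CPM, KDR at 0), and of 6 fibroblast markers 4 and 3. The summed fibroblast markers were 12.64 and 15.96 CPM in the controls against 19.62 and 17.98 CPM. Of the 5 fibroblast markers tested PDGFRB (1.38) and COL1A1 (0.50) rose, and COL3A1 (-0.90), COL1A2 (-0.79) and DCN (0.55) were not called. The part of these markers in the results was not tested.

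Of the 36 members 23 passed the filter and were tested, and the other 13 had at most 4 counts in any library. Of the 23 tested members 8 rose and 9 fell, so that 73.9% were called where 55.1% of all tested genes were. The groups' libraries did not overlap for 19 of the 23, against 79.8% of all tested genes. The median log2 fold change of the members was -0.06 and that of all tested genes -0.01. Behind this even balance lay different patterns by family. Of the 5 tested metallothioneins 4 fell, each by at least 2-fold, a size of fall that 8.80% of all tested genes had. For MT1X that size rested on control replicate 2, without which its log2 fold change was -0.51. The 4 genes may not be independent: MT2A and MT1E differed alike between the controls (1.645-fold and 1.646-fold), and MT1G and MT1X share sequence. The 17 tested transporters had 8 higher and 5 lower and, with 1 exception, changes under 2-fold. The exception, SLC39A11, rose by at least 2-fold, as did 10.2% of all tested genes.

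**Figure D1:**
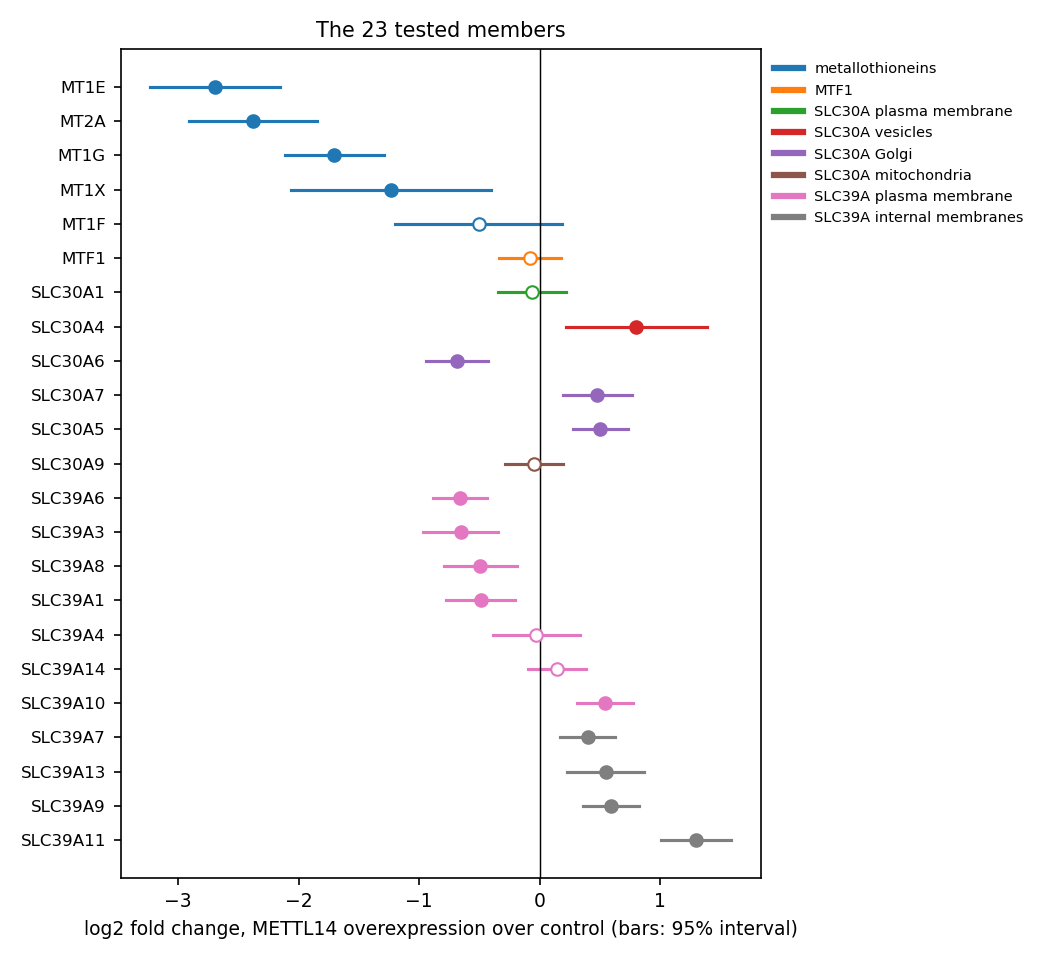
Log2 fold change (METTL14 overexpression over control) of the 23 tested members, with 95% intervals as bars, coloured by family and assumed location. Filled points passed the test at an adjusted p below 0.05. The metallothioneins MT1E, MT2A, MT1G and MT1X lie left of the other members, and SLC39A11 is farthest to the right.

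The metallothionein transcripts were dominated by MT2A and MT1E, and both were several-fold lower with METTL14. MT2A (ENSG00000125148, GRCh38 chromosome 16, 56608199 to 56609497, plus strand), the main metallothionein of most human tissues, gave 5235 and 8725 counts in control cells, against 1263 and 1496 under overexpression. Both controls lay far above both METTL14 libraries, and the controls differed from each other more than the METTL14 libraries did. MT2A fell from 360 ± 124 to 69.4 ± 6.38 CPM (SD, n = 2), 5.19-fold (log2 fold change -2.38, SE 0.227, edgeR adjusted p = 0.00024). MT1E (ENSG00000169715, chromosome 16, 56625475 to 56627112, plus strand) was measured at 2476 and 4131 counts in control cells, against 489 and 556 under overexpression. It fell from 170 ± 58.8 to 26.3 ± 1.66 CPM, 6.48-fold (log2 fold change -2.70, SE 0.23, edgeR adjusted p = 0.000172). In a bulk library fewer cells with a transcript and less of it per cell cannot be told apart.

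MT1G (ENSG00000125144, chromosome 16, 56666731 to 56668065, minus strand) gave 425 and 562 counts in control cells, against 146 and 165 under overexpression. It fell 3.25-fold (log2 fold change -1.70, SE 0.175, edgeR adjusted p = 0.000304), with no overlap between the groups. MT1X (ENSG00000187193, chromosome 16, 56682424 to 56684196, plus strand) was measured at 236 and 551 counts in control cells, against 170 and 173 under overexpression. Control replicate 1 was close to the METTL14 libraries, and control replicate 2 was 2.30 times as high in CPM as control replicate 1. MT1X fell (log2 fold change -1.23, SE 0.354, edgeR adjusted p = 0.0212), but the size rests on control replicate 2: without it the log2 fold change was -0.51, and without control replicate 1 it was -1.71. The call was also lost without METTL14 overexpression replicate 1 (adjusted p = 0.11) and without the filter on low counts (adjusted p = 0.0695). MT1F (ENSG00000198417, chromosome 16, 56657694 to 56660698, plus strand) was measured at 81 and 123 counts in control cells, against 85 and 62 under overexpression, so its groups overlapped. It was not called (log2 fold change -0.50, 95% interval -1.20 to 0.19, edgeR adjusted p = 0.185). It passed the test only without control replicate 1 (-0.76), where the spread came from the METTL14 libraries alone.

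**Figure D2:**
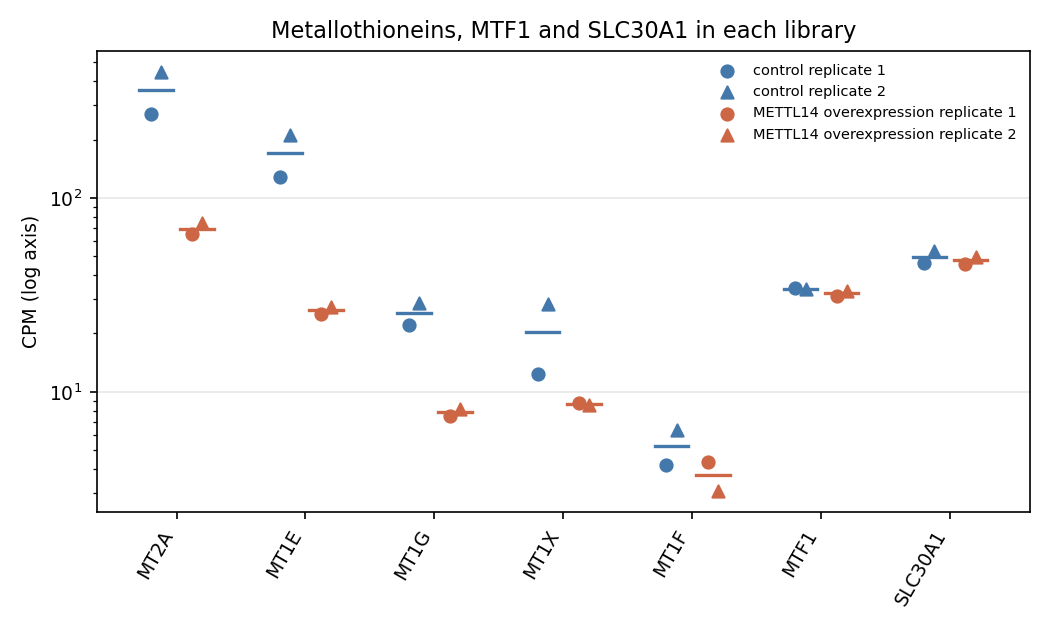
CPM on a log axis of the 5 tested metallothioneins, MTF1 and SLC30A1 in each library. Circles are replicate 1, triangles replicate 2, and bars the means of the 2 libraries of a group. MT2A goes from 272 and 448 CPM in the controls to 64.9 and 73.9 CPM with METTL14, while the points of MTF1 and SLC30A1 lie close together.

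Summed over the 11 genes, metallothionein transcripts made up 0.0419% and 0.0732% of a control library's counts, against 0.0112% and 0.0124% under overexpression. In CPM the sums were 440 and 723 in control cells, against 111 and 121 under overexpression, a ratio of means of 5.02. Control replicate 1 alone was 3.79 times the METTL14 mean, and control replicate 2 was 6.24 times. The sum does not depend on how reads were divided between metallothioneins. For a single value an exact permutation test of 2 libraries against 2 cannot give a two-sided p below 0.333, so no p is given for it. The make-up of the pool also differed. MT2A took 61.9 and 61.9% of the summed CPM in the controls and 58.6 and 61.0% with METTL14. MT1E took 29.3 and 29.3% against 22.7 and 22.7%. MT1X took 2.79 and 3.91% against 7.89 and 7.05%, and MT1F 0.958 and 0.873% against 3.94 and 2.53%. MT1G took 5.03 and 3.99% against 6.78 and 6.73%. In both METTL14 libraries the shares of MT1G, MT1X and MT1F were thus above those of both controls, and the shares of MT1E and MT2A were below them.

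The metallothionein genes lie together within 119 kb of chromosome 16, and MT1 genes are similar in sequence. Cut into runs of 50 bases, the annotated MT1G transcript shared 19.9% of its runs with other genes of the files and MT1X 14.7%, mostly with each other. The values were 3.59% for MT1F, 2.17% for MT2A and 0.458% for MT1E. Against all other annotated genes, in the files or not, the values were 45.1% for MT1X and 20.2% for MT1G. They were 5.34% for MT1E, 4.89% for MT2A and 3.59% for MT1F. Counts of MT1X and MT1G are therefore less certain than those of MT2A and MT1E. MT1A had 1 count in 1 METTL14 library, MT3, the brain metallothionein, had 1 or 2 counts per library, and MT1B, MT1H, MT1M and MT4 had none.

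Genes within 125 kb on either side of the cluster, a window chosen after their values were seen, went in both directions. Upstream of it, BBS2, a cilium gene, rose (1.29, SE 0.162), and NUDT21 (-0.62, SE 0.0955) and OGFOD1 (-0.73, SE 0.16) fell. Downstream, NUP93 was not called (-0.36, adjusted p = 0.0666). None of these 4 neighbours had a fitted fall as large as that of MT2A, MT1E, MT1G or MT1X, a difference between genes that was not tested.

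**Figure D3:**
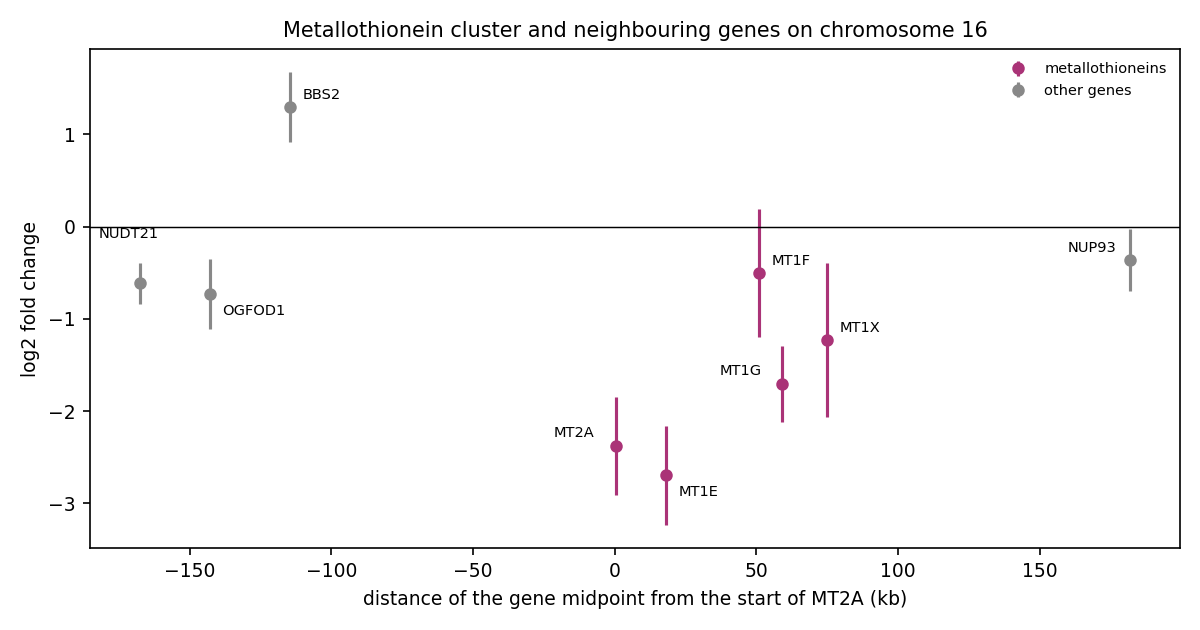
Log2 fold change with 95% intervals against the distance of each gene's midpoint from the start of MT2A in kb, for the tested metallothioneins and the tested genes within 125 kb of the cluster. The metallothioneins sit between -0.50 and -2.70, and the neighbours lie on both sides of 0.

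Promoter sequence is shown because MTF1 binds metal response elements, whose core is TGCNCNC. The 250 bases before each RefSeq start (GRCh38.p14) were searched for this core on both strands, and some genes have several starts. Capitals mark the matches, which may overlap. Of the 36 members 27 had an entry. The others, MT1A, MT1E, MT1F, MT1G, MT1M, MT3, SLC30A8, SLC39A4 and SLC39A14, were not searched. MT2A and MT1X are shown as metallothioneins that fell, MT1H as a metallothionein without counts, and SLC30A1 as the exporter known as an MTF1 target. They lie at chr16:56608334-56608583, chr16:56682220-56682469 and chr16:56669564-56669813 on the plus strand and at chr1:211579162-211579411 on the minus strand.
MT2A: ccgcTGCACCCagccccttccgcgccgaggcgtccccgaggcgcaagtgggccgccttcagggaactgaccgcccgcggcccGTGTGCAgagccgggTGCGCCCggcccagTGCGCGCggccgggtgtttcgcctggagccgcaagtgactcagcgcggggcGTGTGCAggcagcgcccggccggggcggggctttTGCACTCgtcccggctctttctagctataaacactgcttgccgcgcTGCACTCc
MT1X: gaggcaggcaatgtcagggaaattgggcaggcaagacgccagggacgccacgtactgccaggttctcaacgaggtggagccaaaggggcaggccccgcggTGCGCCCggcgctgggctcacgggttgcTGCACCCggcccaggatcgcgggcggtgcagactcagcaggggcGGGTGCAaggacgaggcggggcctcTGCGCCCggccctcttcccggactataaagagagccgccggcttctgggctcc
MT1H: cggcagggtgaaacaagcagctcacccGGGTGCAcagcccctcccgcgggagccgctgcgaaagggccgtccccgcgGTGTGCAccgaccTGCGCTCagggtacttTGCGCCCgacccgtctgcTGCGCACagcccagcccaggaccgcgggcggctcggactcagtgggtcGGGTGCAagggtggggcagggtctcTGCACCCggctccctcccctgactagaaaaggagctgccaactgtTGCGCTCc
SLC30A1: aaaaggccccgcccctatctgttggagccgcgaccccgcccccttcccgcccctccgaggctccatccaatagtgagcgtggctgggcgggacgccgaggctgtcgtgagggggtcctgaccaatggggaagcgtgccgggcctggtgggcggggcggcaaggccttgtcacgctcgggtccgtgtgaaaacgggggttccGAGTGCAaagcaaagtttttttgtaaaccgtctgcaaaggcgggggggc

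The window of MT2A held 7 matches, 5 on the gene's strand and 2 on the other. That of MT1X held 4, that of MT1H 8 and that of SLC30A1 1. GENCODE starts SLC30A1 at 211578742, outside this window, and the bases next to that start were not searched. Over all 35116 promoter windows of this length, 49.1% held at least 1 match, 1.77% at least 4 and 0.0854% at least 7. All matches in these 4 windows were of the form TGCACNC or TGCGCNC, a narrower version searched after the first, of which 24.8% of all windows held at least 1 and 0.37% at least 4. MT1B and MT4 held 5 matches each of the wider core. Of the narrower form MT1B and MT4 held 3 each, MT1X 4, MT2A 7 and MT1H 8. MT1H, MT1B and MT4 had no counts in any library. The MTF1 window held none, and among SLC30A windows the most was 3, before SLC30A2. Among SLC39A windows the most was 2, before a start of SLC39A1 and a start of SLC39A8. The other windows of SLC39A1 and SLC39A8 held none, among them that next to the outer start of SLC39A1.

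Transcripts were also searched for GGACT, the letters at which the METTL3-METTL14 complex most often places m6A, on the transcript strand only. Among the tested metallothioneins MT2A and MT1G held none, MT1X and MT1F 1 each, and MT1E 2. Of all tested transcripts 91.6% held at least 1, with a median of 0.954 per kb, in transcripts with a median length of 3125 nt. The metallothionein transcripts are far shorter, between 406 nt for MT1G and 786 nt for MT2A. Both MT2A, without GGACT, and MT1E, with 2.84 per kb, fell. Other sequences at which m6A can be placed were not searched, and a link between motif and change was not tested. Among the tested transporters the density ran from 0.161 per kb in SLC30A9, which was not called, to 2.49 per kb in SLC39A7, which rose. The files used here measure no m6A.

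Fold changes over all tested genes varied with transcript length and GC content, and the fitted trend was negative for the short metallothionein transcripts. It stood at -0.32 for MT2A, -0.38 for MT1E, -0.61 for MT1G, -0.60 for MT1X and -0.39 for MT1F. The value for MT2A rests on its GENCODE length of 786 nt, which starts upstream of the RefSeq start. MT1G and MT1X, at 406 and 450 nt, had more negative values, so the correction for MT2A may be too small. With that trend removed, MT2A (-2.05, adjusted p = 0.000494), MT1E (-2.31, adjusted p = 0.000347) and MT1G (-1.09, adjusted p = 0.00208) were still called, and MT1X was not (-0.63, adjusted p = 0.172). MTF1 was then called lower (-0.34, adjusted p = 0.0357), and SLC39A13 was not called (0.38, adjusted p = 0.0508).

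**Figure D4:**
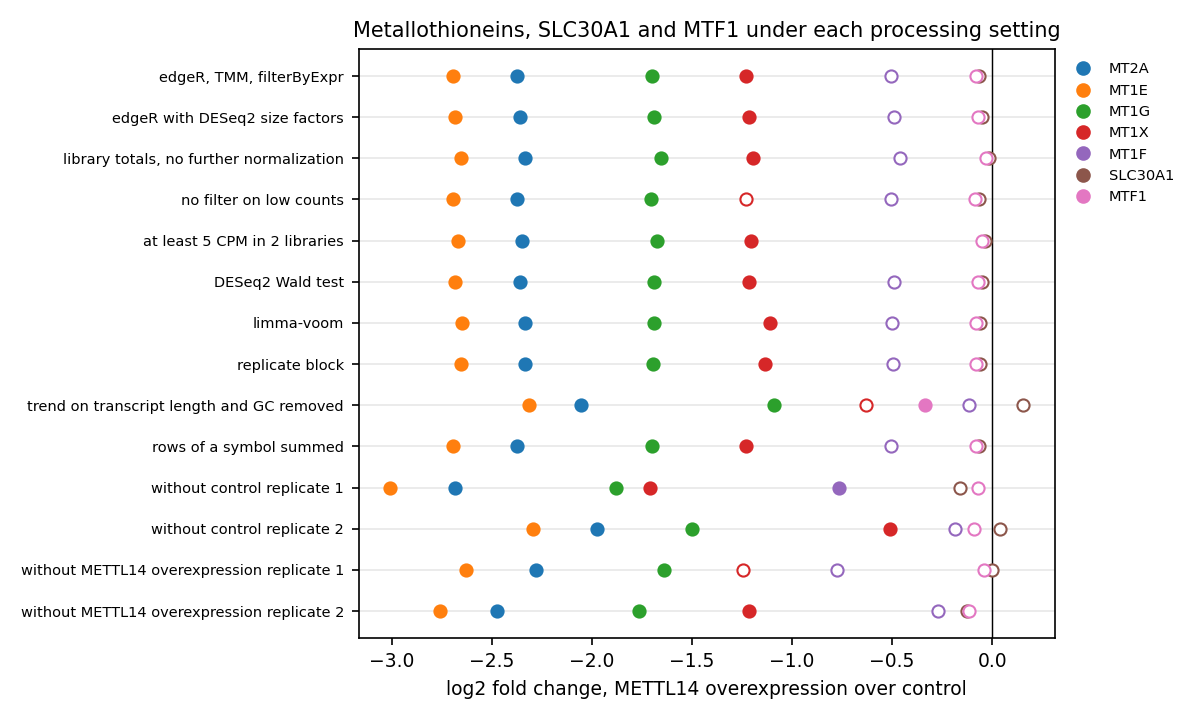
Log2 fold change of the 5 tested metallothioneins, SLC30A1 and MTF1 under each processing setting, with filled points where the adjusted p was below 0.05. MT2A stays between -1.97 and -2.69 and MT1E between -2.29 and -3.01, while MT1X loses its call under 3 settings.

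MTF1 (ENSG00000188786, chromosome 1, 37809567 to 37859620, minus strand) gave 657 and 659 counts in control cells, against 610 and 667 under overexpression. In CPM both controls (34.18 and 33.82) lay slightly above both METTL14 libraries (31.34 and 32.95). It was not called (log2 fold change -0.08, 95% interval -0.34 to 0.18, edgeR adjusted p = 0.557). SLC30A1 (ENSG00000170385, chromosome 1, 211571568 to 211578742, minus strand), the exporter at the plasma membrane and a target of MTF1, gave 887 and 1039 counts in control cells, against 886 and 1004 under overexpression. Its groups overlapped, and it was not called (log2 fold change -0.06, 95% interval -0.34 to 0.22, edgeR adjusted p = 0.671). These intervals do not reach a 2-fold change in either direction. The intervals of MT2A (-2.91 to -1.84) and MT1E (-3.24 to -2.16) lie wholly below those of MTF1 and SLC30A1, and the difference itself was not tested.

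Among the other SLC30A exporters, those that load zinc into the secretory pathway moved in different directions. SLC30A5, a Golgi transporter, gave 987 and 1046 counts in control cells, against 1463 and 1490 under overexpression. It rose 1.42-fold (log2 fold change 0.50, SE 0.0973, edgeR adjusted p = 0.00402). SLC30A6, which has no transport activity of its own and works as the partner of SLC30A5, gave 806 and 853 counts, against 528 and 527. It fell 1.61-fold (-0.69, SE 0.109, edgeR adjusted p = 0.00168), and in both genes the groups did not overlap. SLC30A5 took 24.19 and 22.96% of the exporters' summed CPM per kb in the controls against 32.1 and 31.3%, and SLC30A6 16.9 and 16.04% against 9.93 and 9.49%. SLC30A7, the other Golgi transporter, gave 477 and 542 counts, against 684 and 773, and rose (0.48, SE 0.121, edgeR adjusted p = 0.0126). SLC30A4, a vesicle transporter, gave 74 and 118 counts, against 179 and 164, and rose 1.74-fold (0.80, SE 0.249, edgeR adjusted p = 0.0284). SLC30A9, which moves zinc out of mitochondria, gave 1971 and 2242 counts, against 2065 and 2114, and was not called (-0.05, 95% interval -0.29 to 0.19).

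Of the SLC30A calls, that of SLC30A6 was kept whichever library was left out. Without METTL14 overexpression replicate 1, SLC30A4 (adjusted p = 0.123), SLC30A5 (0.0587) and SLC30A7 (0.0531) were not called, and SLC30A7 also lost its call without replicate 2 (0.146). Their log2 fold changes then lay between 0.42 and 0.71. That of SLC30A4 was 0.52 without control replicate 1 and 1.16 without control replicate 2. SLC30A2, SLC30A3, SLC30A8 and SLC30A10 had at most 4 counts in any library, the last 2 with none. SLC30A8 is the zinc transporter of insulin granules, SLC30A3 that of synaptic vesicles, and SLC30A10 exports manganese.

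SLC39A importers assigned to internal membranes were higher, and those of the plasma membrane mostly lower or not called. All 4 of the internal group rose, where 27.0% of all tested genes did, with a median log2 fold change of 0.57. SLC39A11 (ENSG00000133195, chromosome 17, 72645949 to 73092712, minus strand), whose place in the cell is less settled than that of the others, gave 235 and 260 counts in control cells, against 620 and 629 under overexpression. It rose 2.46-fold (1.30, SE 0.125, edgeR adjusted p = 0.000242). SLC39A9 (ENSG00000029364, chromosome 14), of the Golgi, gave 2641 and 2463 counts, against 3957 and 3953, and rose 1.51-fold (0.60, SE 0.0991, edgeR adjusted p = 0.00207). Its exons overlap those of ERH, and without strand, which the sources used here do not say was counted, reads there cannot be told apart. SLC39A13, of the Golgi and its vesicles, gave 270 and 248 counts, against 393 and 384, and rose (0.55, SE 0.137, edgeR adjusted p = 0.0119).

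SLC39A7, which releases zinc from the endoplasmic reticulum, gave 3577 and 3355 counts in control cells, against 4618 and 4756 under overexpression. It rose 1.32-fold (0.40, SE 0.0969, edgeR adjusted p = 0.0107), with no overlap between the groups. It overlaps exons of RXRB. SLC39A7 and SLC39A13 were not called in fits with a single METTL14 library, where the spread came from the controls alone. Without METTL14 overexpression replicate 1 their adjusted p-values were 0.162 and 0.129, and without replicate 2 they were 0.146 and 0.0643. The log2 fold changes stayed between 0.39 and 0.59.

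Of the 10 importers assigned to the plasma membrane 7 were tested: 4 fell, 1 rose and 2 were not called, with a median log2 fold change of -0.49. Where 28.1% of all tested genes fell, 4 of these 7 did. SLC39A6, of the LIV-1 group and known from estrogen-responsive breast cancer, gave 2470 and 2470 counts, against 1610 and 1591, and fell 1.58-fold (-0.66, SE 0.0952, edgeR adjusted p = 0.00111). SLC39A10, its close relative and its partner in a complex, gave 885 and 901 counts, against 1277 and 1392, and rose 1.46-fold (0.54, SE 0.0999, edgeR adjusted p = 0.00324). In both genes the groups were well apart, in opposite directions. SLC39A3 gave 644 and 560 counts, against 403 and 381, and fell (-0.65, SE 0.133, edgeR adjusted p = 0.00483). A second row with its symbol, with 27.6 to 51.0 counts, shares 26.6% of its sequence runs.

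SLC39A1 (ENSG00000143570, chromosome 1, 153959099 to 153968184, minus strand), a broadly expressed importer, gave 5614 and 4608 counts in control cells, against 3679 and 3792 under overexpression. It fell 1.40-fold (-0.49, SE 0.122, edgeR adjusted p = 0.0119). A row listed under JTB holds 71.3% of its sequence runs but was given at most 7.44 counts, and CREB3L4 overlaps its exons. SLC39A8, which carries manganese and cadmium besides zinc, gave 683 and 589 counts, against 468 and 459, and fell (-0.49, SE 0.129, edgeR adjusted p = 0.0144). The calls of SLC39A1 and SLC39A8 were lost without METTL14 overexpression replicate 1 (adjusted p = 0.0873 and 0.0716) and without replicate 2 (0.0896 and 0.126), and that of SLC39A10 without replicate 2 (0.0502). Without control replicate 1 the log2 fold change of SLC39A1 was -0.33.

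SLC39A14, which also carries iron and manganese, had the highest total over the 4 libraries of any tested transporter, although SLC39A1 exceeded it in control replicate 1, with 5487 and 6311 in control cells, against 6606 and 6755 under overexpression. It was not called (0.14, 95% interval -0.10 to 0.39, edgeR adjusted p = 0.275), except without control replicate 2 (0.23), where the spread came from the METTL14 libraries alone. SLC39A4, the intestinal uptake transporter lost in acrodermatitis enteropathica, gave 633 and 485 counts, against 572 and 554. The difference between its controls exceeded that between the groups, and it was not called (-0.03, 95% interval -0.39 to 0.34). SLC39A2, SLC39A5 and SLC39A12 had at most 2 counts in any library. SLC39A5 is the importer of the basolateral face of enterocytes.

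**Figure D5:**
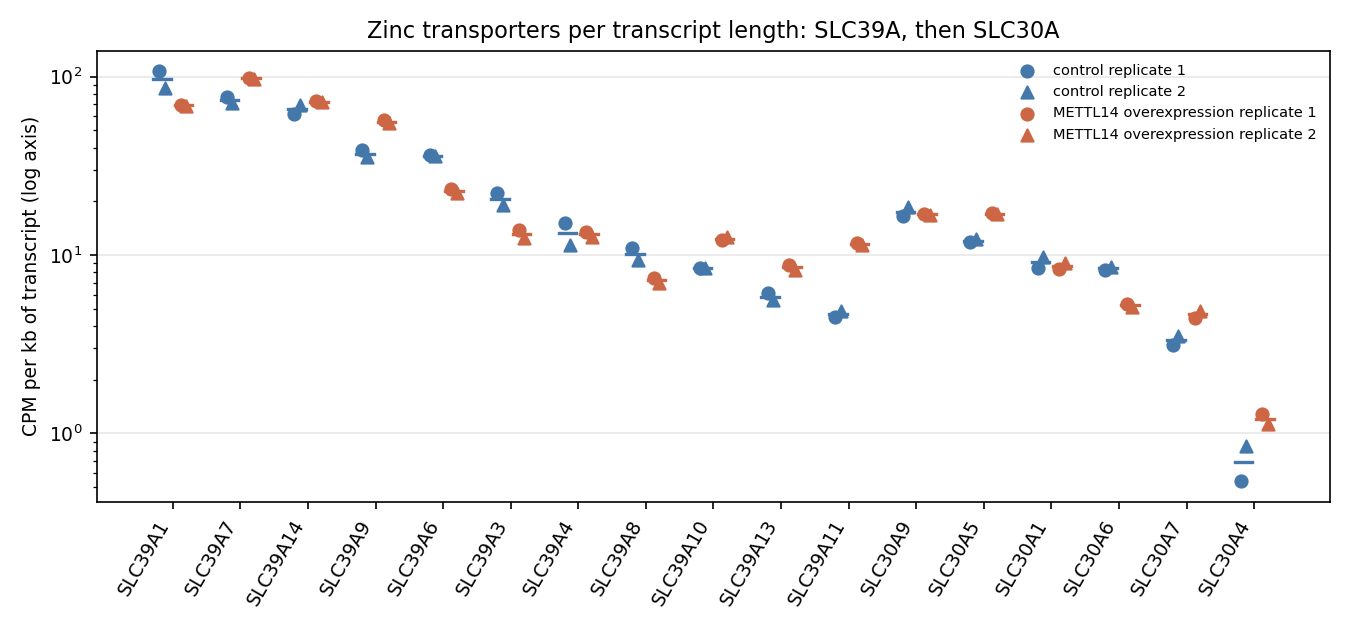
CPM per kb of annotated transcript, on a log axis, for the 11 tested SLC39A and 6 tested SLC30A genes in each library, ordered by the control mean within each family. Circles are replicate 1, triangles replicate 2, and bars the group means. SLC39A1 leads in the controls at 97.0 CPM per kb, and SLC39A7 leads with METTL14 at 98.0.

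On the scale of CPM per kb of transcript, which allows levels of different genes to be compared, MT2A (458) and MT1E (242) stood above all transporters in the controls. With METTL14 they stood at 88.3 and 37.4, where SLC39A7 reached 98.0, SLC39A14 72.5, SLC39A1 69.1 and SLC39A9 56.0. Among the importers, SLC39A1 took 27.6 and 24.2% of the family's summed CPM per kb in the controls and 17.9 and 18.1% with METTL14. SLC39A7 took 19.89 and 19.95% against 25.3 and 25.7%. Summed in CPM, the 14 SLC39A genes gave 1204 and 1142 in control cells, against 1244 and 1218 under overexpression, and the 10 SLC30A genes gave 270.8 and 300.0 against 298.3 and 300.1. The ratio of group means was 1.05 for either transporter family, where the metallothionein total was 5.02-fold lower. GENCODE starts MT2A at 56608199, upstream of the RefSeq start, so the 786 nt used here may take in bases printed above as promoter. Counted from the RefSeq start, the transcript would be shorter and its level per kb higher. Whether MT2A lay below SLC39A7 with METTL14 is therefore not settled.

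Other genes of metal handling were read from lists by role. Of 12 tested copper genes 3 rose and 3 fell, near the 27.0% and 28.1% of all tested genes, with a median log2 fold change of 0.10. SLC31A1, the copper importer, rose from 1551 and 1693 counts to 2579 and 2668 (0.66, SE 0.0972, edgeR adjusted p = 0.00124), and ATP7B, a copper-exporting pump, from 417 and 413 to 670 and 640 (0.62, SE 0.117). STEAP3, a metalloreductase, rose (0.40, SE 0.106). The copper chaperones of cytochrome oxidase assembly COX17 (-0.68, SE 0.175) and SCO2 (-0.65, SE 0.164) fell, as did COMMD1 (-0.65, SE 0.211). Calls were lost without METTL14 overexpression replicate 1 for COX17 (adjusted p = 0.104), COMMD1 (0.329) and STEAP3 (0.228), and without replicate 2 for SCO2 (0.079) and STEAP3 (0.0948). After removing a fitted trend of fold change on transcript length and base composition, ATP7B, STEAP3, COX17 and COMMD1 were not called (adjusted p = 0.118, 0.336, 0.653 and 0.372). COMMD1 also lost its call by DESeq2 (0.0549) and with library totals (0.0589). STEAP3 and COMMD1 were named after their values were seen.

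Of 8 tested genes of other zinc channels and zinc chaperones 1 rose and 1 fell, so that 25% were called, below the 55.1% of all tested genes. MCOLN1, a lysosomal channel that passes zinc and iron, gave 403 and 274 counts, against 113 and 126, and fell 2.91-fold (-1.54, SE 0.221, edgeR adjusted p = 0.00111). CBWD6, of the ZNG1 family of zinc chaperones whose copies are nearly alike, rose (0.86, SE 0.29). Its call was lost without METTL14 overexpression replicate 1 (adjusted p = 0.121), without replicate 2 (0.0884) and without control replicate 1 (0.53, adjusted p = 0.0552), and without control replicate 2 its log2 fold change was 1.30. CBWD1 (-0.23) and CBWD3 (0.25) were not called. The exceptions were CBWD1 without control replicate 1 (-0.31) and CBWD3 without control replicate 2 (0.33), where the spread came from the METTL14 libraries alone. CBWD3 was also called with the length and GC trend removed (0.54, adjusted p = 0.012). Of 8 tested genes for manganese and other divalent metals 25% were called, again below 55.1%. CNNM2 (1.00, SE 0.105) and CNNM4 (0.45, SE 0.106), both of magnesium transport, rose and none fell, with CNNM3 at 0.45 and TMEM165 at -0.23. The call of CNNM4 was lost without either METTL14 library (adjusted p = 0.0987 and 0.0669) and after removing the length and GC trend (0.345). CNNM3 passed the test without control replicate 1 (0.82, adjusted p = 1.11e-20), without METTL14 overexpression replicate 2 (0.0497), by DESeq2 (0.0401), with library totals (0.0418) and with a replicate block (0.00122), and TMEM165 without control replicate 2 (-0.37, adjusted p = 2.31e-06).

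Zinc-requiring enzymes that mature in the secretory pathway had 5 of 10 tested members higher and 1 lower, 60% called where 55.1% of all tested genes were, and 27.0% and 28.1% by direction. ACE, angiotensin-converting enzyme, gave 31 and 64 counts in control cells, against 366 and 382 under overexpression (2.94, SE 0.28, edgeR adjusted p = 0.000238). Its log2 fold change was 2.52 without control replicate 1 and 3.54 without control replicate 2. NT5E, the ectonucleotidase CD73, gave 611 and 968 counts, against 2734 and 2888 (1.80, SE 0.194), and ENPP1 (1.28, SE 0.124) and CA12, a carbonic anhydrase (0.92, SE 0.15), rose too. Named after their values were seen, the intestinal alkaline phosphatase ALPI rose (0.77, SE 0.136), and ALPP, the placental form, fell (-3.14, SE 0.639). The ALPP controls differed widely, at 767 and 194 counts, where the METTL14 libraries gave 56.5 and 56.2. The call disappeared without either METTL14 library (adjusted p = 0.444 and 0.252), without the filter on low counts (0.121) and with a replicate block (0.166). Without control replicate 1 its log2 fold change was -1.81, and without control replicate 2 it was -3.82. ALPP and ALPG are close copies.

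Genes that respond to heavy metals besides metallothioneins had 4 of 10 members higher and 1 lower, 50% called where 55.1% of all tested genes were. NQO1 (0.82, SE 0.135), GCLC, the rate-limiting enzyme of glutathione synthesis (0.69, SE 0.13), and SRXN1 (0.48, SE 0.119) rose, as did HMOX1, heme oxygenase (0.38, SE 0.135), named after its values were seen. DNAJB1, a heat shock co-chaperone, fell from 4285 and 4318 to 1964 and 2052 counts (-1.14, SE 0.0937, edgeR adjusted p = 0.00016). The SRXN1 and HMOX1 calls were lost without METTL14 overexpression replicate 1 (adjusted p = 0.102 and 0.28) and without replicate 2 (0.0591 and 0.169), and that of HMOX1 also by DESeq2 (0.0895) and after removing the length and GC trend (0.0549).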

How the data were processed

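The 4 deposited files hold 1 value per gene, the authors' expected counts without normalization, of which 10.8 to 11.6% are not whole. These were rounded here to whole numbers. Build hg18 and the programs fastp, Bowtie2, HISAT2, StringTie and RSEM are named, per the submitters' processing notes. Their roles and the strand setting are not given in the sources used here. Of 20323 gene identifiers 20171 are in GENCODE release 29, whose GRCh38 positions, transcript lengths and transcripts were used, including for all 36 members. The build behind the counts is therefore unclear.

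Groups came from sample titles. The 102 rows without a symbol took at most 0.0366% of counts. After filterByExpr with a minimum count of 10 and TMM scaling, the robust quasi-likelihood test of edgeR 4.0.16 was run in R 4.3.3 without covariates. The standard error is taken as the absolute log2 fold change over the root of F, and 95% intervals use the test's degrees of freedom. Both are approximate. With 2 libraries per group, p-values rest on a spread shared over genes (common coefficient of variation 10.9%). Chi-square per degree of freedom was 29.2 between the controls and 3.32 between the METTL14 libraries, which therefore differed by more than sampling noise. If libraries do not come from separate cultures, the p-values measure technical spread.

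The procedure was run on simulated counts with known changes, drawn with the same spread in both groups. That run does not show how calls fare where the spread differs between groups, as it did here. Members and lists were chosen with earlier results of these data known. Named are all members, METTL14, and in each metal list the up to 4 genes with the smallest p. Alternatives used DESeq2 1.42.0 and limma 3.58.1, and other steps Python 3.11.15 and pandas 2.3.3. Promoters come from RefSeq. A result on a gene near the metallothionein cluster is not reported here.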

Additional observations from a re-analysis of the deposited data

How the results depend on the processing

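Under 13 alternatives (DESeq2's size factors, library totals, no low-count filter, at least 5 CPM in 2 libraries, the DESeq2 Wald test, limma-voom, a replicate block, removal of the length and GC trend, summed rows, and leaving out each library) no called member changed sign. Of the 17 called members 8 kept their call under each alternative: MT1E, MT1G, MT2A, SLC30A6, SLC39A3, SLC39A6, SLC39A9 and SLC39A11. MT1X also lost its call without the filter on low counts (adjusted p = 0.0695). MT1F did not pass the filter of 5 CPM. Leaving out 1 library at a time gave 3 to 9 members called higher (3 without METTL14 overexpression replicate 1 and 4 without replicate 2), 6 to 10 called lower, 3 to 5 metallothioneins called lower, 10 to 21 other metal-handling genes called higher and 4 to 14 called lower (14 without control replicate 2). Over all genes it gave 2307 to 4452 called higher and 2307 to 4575 called lower, with 2307 lower without METTL14 overexpression replicate 1. In these fits the lone library of a group is assumed to vary like the other group, and the cause of the differences was not tested. With the replicate block 8 members were higher and 9 lower, as without it, and 3797 and 3903 genes overall. Same-numbered libraries deviated from their group means with a correlation of 0.11 over genes. The labels do not say that a number marks a shared day. The block ended the call of ALPP (-2.91, adjusted p = 0.166) and gave one to CNNM3 (0.49, adjusted p = 0.00122). Library totals moved the median of all genes from -0.01 to 0.04. Depth limits the 13 members with at most 4 counts, for which no difference was detectable.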
